A study of Mus musculus with 8 samples.

Results

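The NRF2 antioxidant genes described here are 10 genes, *Nfe2l2*, *Keap1*, *Nqo1*, *Hmox1*, *Gclm*, *Gclc*, *Txnrd1*, *Srxn1*, *Gsr* and *Prdx1*, named by their known place in the NRF2 pathway and found in the count tables by gene identifier. All 10 were among the 54752 listed genes and all 10 passed the filter on low counts, as did 17865 genes in all. None of the 10 genes was up-regulated or down-regulated in the stressed fetal brain by edgeR or DESeq2 at an adjusted p under 0.05.

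The counts came from whole brains of wild type C57BL/6 mouse fetuses at E15.5, 1 library per brain, of the substrain given in the study's methods as C57BL/6Slac. The stress group held 4 brains (F34 and F35 from females, M28 and M29 from males) of fetuses whose dam underwent chronic unpredictable mild stress (CUMS), a changing series of mild stressors, from early pregnancy until shortly before collection. The control group held 4 brains (F36 and F37 from females, M30 and M31 from males) of fetuses whose dam had no such stress. According to the study's sample list, each group was a single litter, so that litter and condition cannot be told apart, and every error and p-value below measures the spread among littermates. The same list gives the tissue as less than the whole brain, where the sample labels say whole brain, and no batch was given for these 8 brains.

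NRF2, the product of *Nfe2l2*, is a transcription factor that switches on genes against oxidative and electrophilic damage. In unstressed cells KEAP1 binds NRF2 and hands it to a ubiquitin ligase for destruction, and when reactive molecules modify cysteines of KEAP1, NRF2 escapes, enters the nucleus, pairs with a small MAF protein and binds the antioxidant response element (ARE). Much of this control acts on the protein, so the mRNA of *Nfe2l2* itself is a poor measure of the pathway, and its target genes are read instead. Those targets supply glutathione (*Gclm*, *Gclc*, *Gsr*), the thioredoxin and peroxiredoxin system (*Txnrd1*, *Srxn1*, *Prdx1*), quinone reduction (*Nqo1*) and haem breakdown (*Hmox1*).

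The core of the ARE was looked for as the letters TGACNNNGC on both strands in RefSeq promoters (GRCm38.p6), each holding 250 bases before and 50 after a transcription start. A promoter was found for 7 of the 10 genes, and for *Hmox1*, *Gclc* and *Gsr* none was at hand. The letters were present in a promoter of 5 of these 7 genes, against 14.0% of all 27025 genes in the same table. They were not in the windows of *Keap1* and *Nqo1*. Since targets of NRF2 are known in part through their AREs, this share is not independent of the choice of genes and is given as a description. The 5 matches are shown so that the letters searched for can be seen in their surroundings. Capitals mark the matched letters, each sequence is on the strand of its gene, and a match on the other strand appears as its reverse complement. The first matched base lay at position -240 from the start in *Nfe2l2*, at 29 in *Srxn1*, at -134 in *Gclm*, at -133 in *Prdx1* and at -92 in *Txnrd1*.
Nfe2l2, chr2:75704885-75704913, minus strand: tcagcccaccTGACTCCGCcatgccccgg
Srxn1, chr2:152105542-152105570, plus strand: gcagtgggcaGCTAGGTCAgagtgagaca
Gclm, chr3:122245413-122245441, plus strand: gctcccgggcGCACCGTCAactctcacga
Prdx1, chr4:116685456-116685484, plus strand: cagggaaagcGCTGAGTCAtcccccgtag
Txnrd1, chr10:82859104-82859132, plus strand: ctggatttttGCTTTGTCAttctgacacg
Only the *Prdx1* match overlapped the AP-1 type letters TGANTCA. Outside the matches, such letters also stood before the start in the promoters of *Srxn1* and *Prdx1*, and they were not part of the search. A match is a stretch of letters and was not tested as a binding site.

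Libraries held 25320109 to 29105710 counts, and 26944 to 27366 genes had a count in each. Mitochondrial genes took 2.095% to 2.31% of the counts. Summed neuron markers stood at 7968 to 8212 CPM (counts scaled to the size of the library, by the TMM method) in the control brains and 7762 to 8125 CPM in the stressed brains, and summed radial glia markers at 1691 to 1793 CPM and 1725 to 1849 CPM, so both cell classes that define brain tissue at this age were present. The log2 fold change (Log2FC, stress vs. control) and its standard error (SE) are from the quasi-likelihood test of edgeR, in a model of sex and condition, and adjusted p-values are by Benjamini-Hochberg over all 17865 genes. Because these are bulk samples, fewer cells of a type and less RNA per cell cannot be told apart.

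Per exon length, the genes of the family spanned a wide range of levels in the fetal brain. *Prdx1*, which encodes a peroxiredoxin that removes hydrogen peroxide, stood highest at a mean of 133 TPM (counts scaled by exon length and then by library), followed by *Txnrd1*, the cytosolic thioredoxin reductase, at 107 TPM. *Gclc* stood at 49.3 TPM, *Gsr* at 37.03, *Keap1* at 36.3, *Gclm* at 27.0 and *Srxn1* at 23.8 TPM. *Nfe2l2* reached 9.84 TPM, *Hmox1* 8.57 and *Nqo1* 3.08 TPM. The ranges over the 8 brains overlapped between *Gsr* and *Keap1*, between *Gclm* and *Srxn1* and between *Nfe2l2* and *Hmox1*, so these neighbours were not set apart. All other neighbours in the order had ranges that did not overlap. Among the genes tested, *Prdx1* lay at the 92.3rd percentile of TPM and *Nqo1* at the 22.1st.

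**Figure D1:**
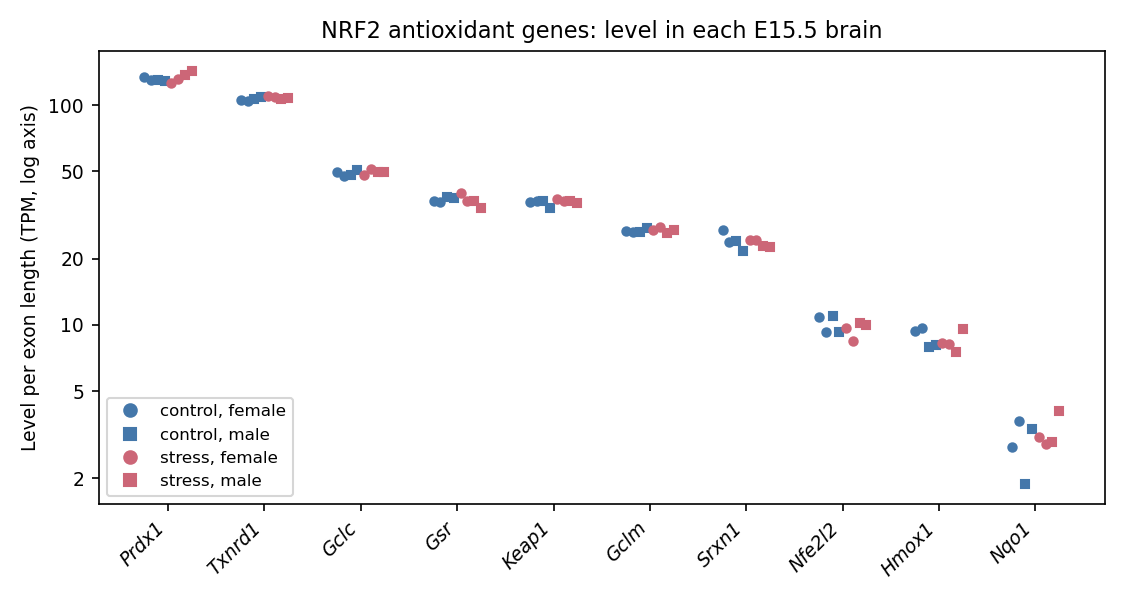
Level of each NRF2 antioxidant gene per exon length (TPM, log axis) in each of the 8 brains, ordered by mean, with circles for females, squares for males, blue for control and red for stress. Levels ran from 3.08 TPM for *Nqo1* to 133 TPM for *Prdx1*, and control and stressed brains overlapped for all 10 genes.

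Across all genes tested, 6.49% were called higher and 7.27% lower in the stressed brains (adjusted p under 0.05). Of the 10 NRF2 antioxidant genes, 0 were higher and 0 lower by edgeR, 0 were called by DESeq2, and 0 reached an unadjusted p under 0.05 in edgeR, where 4800 of all genes did. At the background shares, 1 to 2 genes of 10 would be called in either direction, so a count of 0 is near the background. In 16.4% of all genes the 4 stressed and 4 control brains did not overlap, and this held for 0 of the 10. The median size of the Log2FC, regardless of sign, was 0.03 for the 10 genes and 0.08 for all genes. The intervals cover the spread among littermates and hold no spread between litters, so they do not bound an effect of stress. For 7 of the 10 genes the whole 95% interval of the fold lay within 10% of no change, as it did for 29.9% of all genes, and the exceptions were *Nfe2l2*, *Hmox1* and *Nqo1*. The SE of those 7 genes ran from 0.026 (*Txnrd1*) to 0.057 (*Srxn1*), against a median SE of 0.057 over all genes tested. Both comparisons with all genes depend on how precisely each gene was measured, so they do not show the family to be steadier than other genes.

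*Nfe2l2* (chr2:75675513-75704641, minus strand, mm10) encodes NRF2 itself. It stood at 10.7, 9.17, 10.8 and 9.03 CPM in control F36, F37, M30 and M31, and at 9.38, 8.26, 10.1 and 9.95 CPM in stress F34, F35, M28 and M29. The lowest value was that of stress F35, and the other 3 stressed brains lay inside the control range. The mean was 9.93 ± 0.958 CPM (SD, n = 4) in control and 9.41 ± 0.8292 CPM (SD, n = 4) in stressed brains, a Log2FC of -0.07 (SE 0.08, edgeR adjusted p = 0.607, 95% interval of the fold 0.848 to 1.06).

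*Keap1* (chr9:21229730-21239361, minus strand), the repressor of NRF2, stood at 44.2, 44.9, 44.7 and 41.1 CPM in the control brains and at 44.9, 44.3, 44.8 and 44.2 CPM in the stressed brains, in the same order. The stressed brains were tightly grouped. Control M31 stood well below them and control F36 just below. The means of 43.7 ± 1.78 and 44.5 ± 0.327 CPM (SD, n = 4 each) gave a Log2FC of 0.03 (SE 0.04, edgeR adjusted p = 0.699, interval of the fold 0.965 to 1.08). An opposite-strand gene, *Gm16754*, covers 10.9% of the exon bases of *Keap1* and held at most 75 counts. No option for reads on shared exon bases was stated, so their part in the *Keap1* level is not known. The ratio of *Nfe2l2* to *Keap1* per exon length, activator to repressor, was 0.253 to 0.301 in control and 0.230 to 0.278 in stressed brains. These ranges overlapped, and the log2 ratio differed by -0.10 (exact permutation test, two-sided, p = 0.314, where 0.0286 is the smallest p that 4 against 4 can give).

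*Gclm* (chr3:122245557-122270732, plus strand) and *Gclc* (chr9:77754535-77794485, plus strand) encode the modifier and catalytic subunits of glutamate-cysteine ligase, which carries out the rate-limiting step of glutathione synthesis. *Gclm* stood at 43.9, 43.4, 43.3 and 44.4 CPM in control and 43.4, 45.2, 42.8 and 44.8 CPM in stressed brains. *Gclc* stood at 48.8, 46.7, 46.7 and 48.8 CPM in control and 46.1, 49.6, 48.3 and 49.2 CPM in stressed brains. For both genes the stressed brains reached both slightly above and slightly below the control range. The Log2FC was 0.01 for *Gclm* (SE 0.04, edgeR adjusted p = 0.906, interval of the fold 0.954 to 1.06). It was 0.02 for *Gclc* (SE 0.04, edgeR adjusted p = 0.839, interval of the fold 0.958 to 1.07). The proportion of the subunits was read as a ratio, which does not depend on the scaling of libraries. The ratio of *Gclm* to *Gclc* per exon length was 0.548 in control and 0.546 in stressed brains, with a range of 0.530 to 0.564 over all 8 (exact permutation test, two-sided, p = 0.8). The opposite-strand gene *Gm17494* covers 4.71% of the exon bases of *Gclm* and held at most 199 counts.

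*Gsr* (chr8:33652523-33698163, plus strand), glutathione reductase, returns oxidised glutathione to its reduced form. It stood at 26.1, 26.1, 27.1 and 26.7 CPM in control and 28.03, 25.9, 26.3 and 24.8 CPM in stressed brains. The stressed brains held both the highest value, in female F34, and the lowest, in male M29. The means were 26.5 ± 0.515 and 26.3 ± 1.34 CPM (SD, n = 4 each), and the Log2FC was -0.01 (SE 0.05, edgeR adjusted p = 0.884, interval of the fold 0.927 to 1.06).

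*Txnrd1* (chr10:82833951-82897712, plus strand) reduces thioredoxin with electrons from NADPH and was the most deeply counted gene of the family, with 5002 to 5822 counts per brain. It stood at 194, 192, 195 and 197 CPM in control and 200.3, 198, 197 and 201 CPM in stressed brains. The groups overlapped in a single pair, with stress M28 just below control M31. The means of 194 ± 2.17 and 199 ± 2.14 CPM (SD, n = 4 each) gave a Log2FC of 0.03 (SE 0.03, edgeR adjusted p = 0.465, interval of the fold 0.985 to 1.06). The exact permutation test, two-sided, gave p = 0.0571 for *Txnrd1*, the smallest of the 10 genes, and the others lay between 0.429 and 0.743.

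*Srxn1* (chr2:152105516-152111376, plus strand) encodes sulfiredoxin, which repairs over-oxidised peroxiredoxins. It stood at 19.7, 17.5, 17.5 and 15.7 CPM in control and 17.5, 17.6, 16.8 and 16.8 CPM in stressed brains. All 4 stressed brains lay inside the control range, which was set by female F36 and male M31. The Log2FC was -0.03 (SE 0.06, edgeR adjusted p = 0.767, interval of the fold 0.901 to 1.06).

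*Nqo1* (chr8:107388225-107403206, minus strand), a quinone reductase, and *Hmox1* (chr8:75093621-75100589, plus strand), the inducible haem oxygenase, are the targets most often read as signs of NRF2 activity, and both were scarce. *Nqo1* held 31, 42, 21 and 38 counts in control and 34, 29, 34 and 48 counts in stressed brains. Control M30 was the lowest and stress M29 the highest brain, with the rest mixed. At such counts, counting alone gives a coefficient of variation of 17.0%, and the observed one was 26.5% in control and 18.2% in stressed brains. The Log2FC of 0.15 (SE 0.21, edgeR adjusted p = 0.696) was the largest of the 10 genes and its 95% interval, -0.27 to 0.57 on the log2 scale, the widest. In all, 28.3% of the genes tested had a Log2FC of at least that size. *Hmox1* held 117, 125, 99 and 103 counts in control and 102, 93, 98 and 128 counts in stressed brains. The highest CPM values were those of stress M29 and both control females, and the groups overlapped throughout. The means were 3.97 ± 0.424 and 3.80 ± 0.433 CPM (SD, n = 4 each), with a Log2FC of -0.06 (SE 0.11, edgeR adjusted p = 0.8005, interval of the fold 0.817 to 1.13). For both genes a rise or fall of 10% was not detectable at this depth. In adult tissue *Hmox1* is strongly expressed by macrophages. Of 11 tested microglia and macrophage markers 0 were called by edgeR or DESeq2. At an unadjusted edgeR p under 0.05 there were 0, beside 4800 of all 17865 genes in either direction. The summed level of these markers was 43.1 to 45.1 CPM in control and 40.5 to 45.2 CPM in stressed brains.

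*Prdx1* (chr4:116685544-116700822, plus strand) stood at 106, 103, 102 and 100.3 CPM in control F36, F37, M30 and M31 and at 98.4, 103, 108 and 114 CPM in stress F34, F35, M28 and M29. Both stressed males stood above every other brain, and a stressed female was the lowest. The means were 103 ± 2.37 and 106 ± 6.83 CPM (SD, n = 4 each), and the Log2FC was 0.04 (SE 0.04, edgeR adjusted p = 0.464, interval of the fold 0.980 to 1.09). Gene copies with nearly the same sequence, *Gm21399* and *Gm7204*, held at most 3 and 1 counts.

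**Figure D2:**
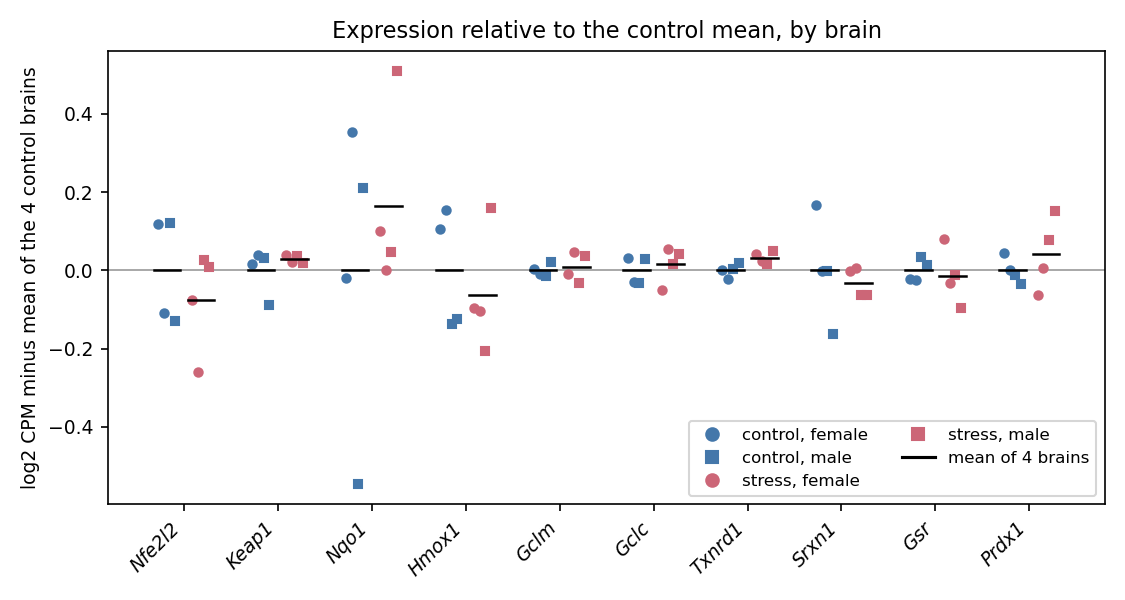
log2 CPM of each gene in each brain minus the mean of the 4 control brains, with circles for females, squares for males, blue for control, red for stress and a black line for the mean of 4 brains. The groups overlapped for all 10 genes, *Nqo1* (21 to 48 counts) scattered most, and both stressed males lay above the other brains for *Prdx1*.

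Whether the stress difference depended on sex was tested with a sex by stress interaction over all 8 brains, for which 0.0056% of all genes, a single gene, were called. None of the 10 genes was called by edgeR or DESeq2. At an unadjusted p under 0.05 there was 1 of the 10, *Prdx1*, beside 1128 of all 17865 genes. The *Prdx1* Log2FC was -0.05 in females (SE 0.04, edgeR adjusted p = 0.564) and 0.14 in males (SE 0.04, edgeR adjusted p = 0.0463). The male minus female difference of 0.19 (SE 0.06, 95% interval 0.07 to 0.31) had an edgeR adjusted p of 0.510, so a difference between the sexes was not shown. Within males 6.8% of all genes were called and *Prdx1* was the single one of the 10, and within females 3.92% were called and none of the 10. The male call was lost with DESeq2 (adjusted p = 0.149) and when either male of either group was left out, with a highest adjusted p of 0.420 without stress M29 (edgeR). It was also lost without either control female.

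**Figure D3:**
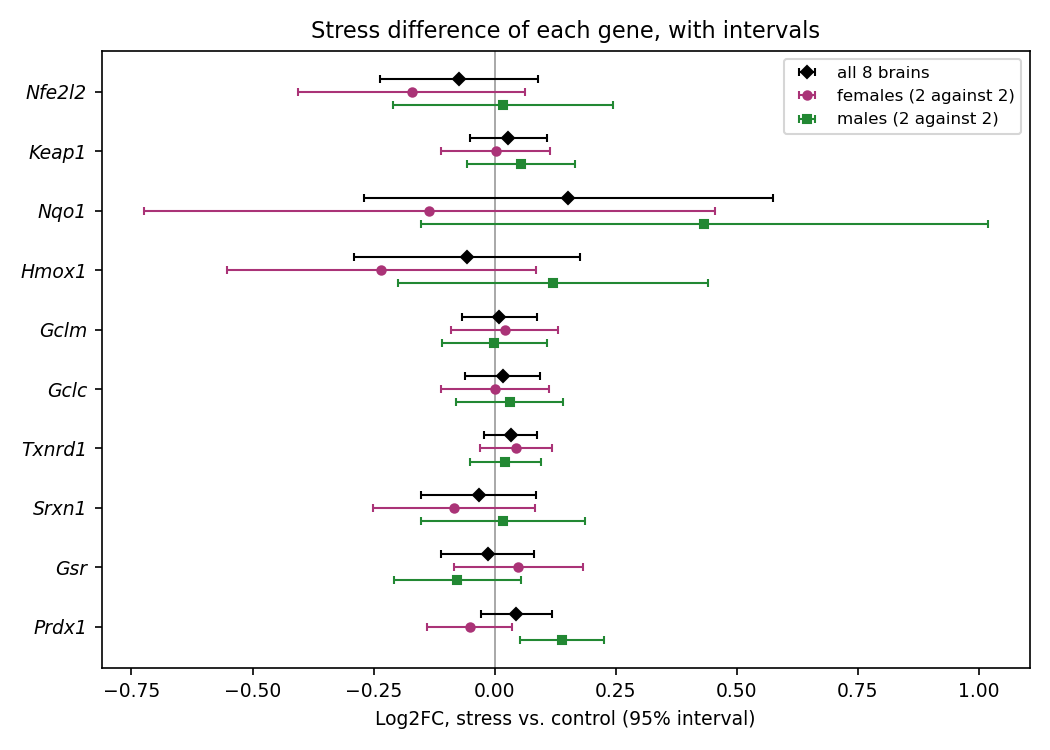
Log2FC (stress vs. control) of each gene with its 95% interval from edgeR, for all 8 brains (black diamonds), females (circles, 2 against 2) and males (squares, 2 against 2). All intervals over 8 brains include 0, and among the single-sex values only that of *Prdx1* in males, 0.05 to 0.22, does not.

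Between the sexes themselves, 0.0896% of all genes were called, and 0 of the 10 by edgeR or DESeq2. The smallest p was that of *Srxn1*, with a Log2FC (male minus female) of -0.12 (SE 0.06, edgeR adjusted p = 0.849).

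Other genes of the same chemistry were read from 7 lists of 83 genes, of which 81 were tested. Of these, 5 (6.17%) were higher and 6 (7.41%) lower, close to the 6.49% and 7.27% of all genes, and the median Log2FC was 0.0045, against 0.0015 for all genes. DESeq2 called 3 higher and 1 lower, where it called 748 higher and 911 lower of all 17865 genes.

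Of 13 tested regulators of NRF2, 1 was higher and 1 lower. *Bach1*, a repressor that competes with NRF2 at the ARE, was at 84.3 to 91.7 CPM in control and 94.3 to 99.9 CPM in stressed brains and rose with a Log2FC of 0.12 (SE 0.03, edgeR adjusted p = 0.0109). The groups of *Bach1* did not overlap. *Mafg*, a small MAF that partners both NRF2 and BACH1, was at 111 to 118 CPM in control and 101 to 112 CPM in stressed brains and fell with a Log2FC of -0.12 (SE 0.03, edgeR adjusted p = 0.00768). The groups of *Mafg* overlapped narrowly. The *Bach1* call was kept in 6 of the 8 fits that left out 1 brain and the *Mafg* call in all 8.

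Of 14 tested genes of the thioredoxin and peroxiredoxin system, 3 were higher and 1 lower. *Txnip*, which encodes a protein that binds and inhibits thioredoxin and is not itself an antioxidant enzyme, stood at 47.1 to 49.6 CPM in control and 63.5 to 66.0 CPM in stressed brains and rose with a Log2FC of 0.42 (SE 0.03, edgeR adjusted p = 1.46e-08). An opposite-strand gene, *Gm15441*, covers 19.4% of its exon bases but held at most 18 counts. *Prdx4*, the peroxiredoxin of the endoplasmic reticulum, rose with a Log2FC of 0.21 (SE 0.05, edgeR adjusted p = 0.00395), standing at 22.3 to 24.1 CPM in control and 25.4 to 28.6 CPM in stressed brains. Both calls were kept whichever brain was left out. *Txnrd3*, a thioredoxin reductase best known from testis, rose with a Log2FC of 0.19 (SE 0.06, edgeR adjusted p = 0.0426), and *Prdx5* fell with a Log2FC of -0.12 (SE 0.04, edgeR adjusted p = 0.0426). Their calls were kept in 3 and 4 of the 8 fits without 1 brain and were lost with DESeq2 (adjusted p = 0.124 and 0.0785). *Trmt112* on the opposite strand covers 19.1% of the exon bases of *Prdx5* and held up to 1261 counts.

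Of 21 tested genes of glutathione synthesis and use, 0 were higher and 2 lower by edgeR. At an unadjusted edgeR p under 0.05 there were 0 higher and 4 lower, beside 4800 of all 17865 genes in either direction. DESeq2 called 0 of the 21. *Gpx3*, the secreted glutathione peroxidase, stood at 9.84 to 11.03 CPM in control and 8.19 to 9.45 CPM in stressed brains and fell with a Log2FC of -0.25 (SE 0.07, edgeR adjusted p = 0.0172, DESeq2 0.0746). *Mgst3*, a membrane glutathione transferase, fell with a Log2FC of -0.15 (SE 0.05, edgeR adjusted p = 0.0459, DESeq2 0.118). The calls were kept in 6 and 2 of the 8 fits without 1 brain.

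Among 4 genes of superoxide and peroxide removal, *Sod3*, the extracellular superoxide dismutase, was the single one called and fell with a Log2FC of -0.64 (SE 0.19, edgeR adjusted p = 0.0253, DESeq2 0.1395) on 19 to 42 counts per brain. Among 11 genes of quinone and carbonyl detoxification, *Aldh1a1*, an aldehyde dehydrogenase that makes retinoic acid, was the single one called and fell with a Log2FC of -0.34 (SE 0.09, edgeR adjusted p = 0.0152, DESeq2 0.0525). Among 10 genes of NADPH supply, only *Idh2*, the mitochondrial isocitrate dehydrogenase, was called, with a Log2FC of 0.09 (SE 0.03, edgeR adjusted p = 0.0448, DESeq2 0.0912). These calls were kept in 3, 4 and 1 of the 8 fits without 1 brain, respectively. Of 8 genes of haem and iron handling, 0 were called by edgeR or DESeq2. At an unadjusted edgeR p under 0.05, 1 of them was lower, beside 4800 of all 17865 genes in either direction.

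**Figure D4:**
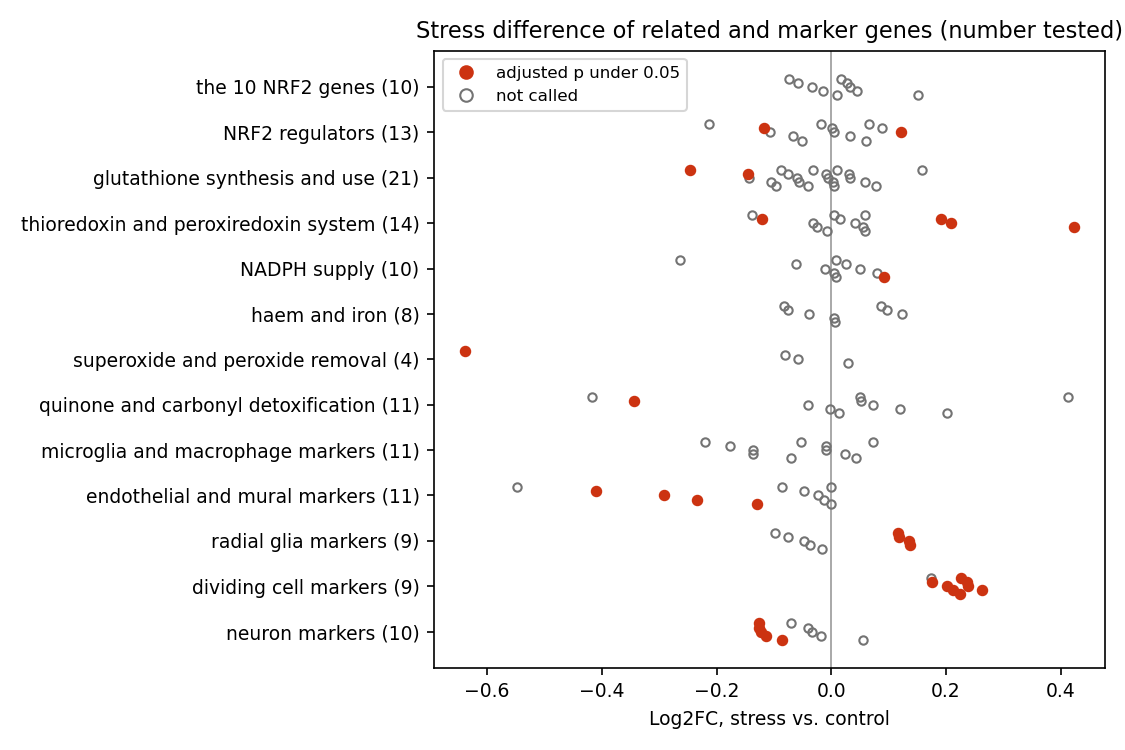
Log2FC (stress vs. control) of each tested gene of the NRF2 family, of 7 related lists and of 5 marker lists, 1 point per gene, filled red where the edgeR adjusted p was under 0.05. The 10 NRF2 genes lie near 0 with none filled, *Txnip* at 0.42 and *Sod3* at -0.64 are the outermost called points, and 8 of 9 dividing cell markers are filled on the right. Erythroid, meningeal and choroid plexus markers are not drawn.

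Markers of several cell types differed between the groups (edgeR, adjusted p under 0.05). Of 9 dividing cell markers, 8 were higher, and their summed level was 593 to 641 CPM in control and 671 to 768 CPM in stressed brains. Of 9 radial glia markers, 4 were higher. The other 5 were not called and all had a negative Log2FC, and the median Log2FC of the list was -0.02. Their summed levels overlapped between the groups (1691 to 1793 CPM in control, 1725 to 1849 CPM in stressed brains). Of 10 neuron markers, 5 were lower, as were 4 of 11 endothelial and mural markers, whose summed level was 271 to 300.04 CPM in control and 261 to 275 CPM in stressed brains. Of 8 tested meningeal fibroblast markers, 3 were higher and 1 lower (47.6 to 59.2 CPM in control, 46.8 to 89.3 CPM in stressed brains), and 3 of 8 choroid plexus markers were higher (39.3 to 51.1 and 49.0 to 79.7 CPM). In the meningeal sum stress M28, at 89.3 CPM, was the only stressed brain above the control range. The 3 higher were *Col1a1* (Log2FC 1.59), *Col1a2* (0.79) and *Col3a1* (1.04). The lower was *Pdgfra* (-0.31), which had the highest mean of the list, 28.5 CPM in control and 23.1 CPM in stressed brains. The meningeal sum therefore mixes genes that moved in opposite directions. In the choroid plexus sum stress F34 stood at 79.7 CPM and the other stressed brains at 49.0 to 54.8 CPM. The 3 higher were *Ttr*, *Otx2* and *Kcne2* (DESeq2 adjusted p = 0.412, 0.0053 and 0.227). Of the other 5, *Folr1*, *Kl* and *Sostdc1* had a negative Log2FC and *Aqp1* and *Clic6* a positive one, none called. *Otx2* made up the largest part of the sum, with means of 38.1 CPM in control and 43.2 CPM in stressed brains. Of 9 tested erythroid markers, 2 were higher and 1 lower (366 to 415 and 374 to 389 CPM). The higher were *Hba-x* (Log2FC 1.09) and *Hbb-y* (0.84), and the lower was *Hbb-bs* (-0.14). *Hba-x* had means of 1.73 CPM in control and 3.71 CPM in stressed brains, and *Hbb-y* 3.36 and 6.00 CPM. These means are a small part of the erythroid sum, which therefore does not show their rise. With DESeq2, 8 dividing cell, 3 radial glia, 1 choroid plexus, 2 erythroid and 0 meningeal markers were higher, and 4 neuron, 2 endothelial and mural, 1 meningeal and 1 erythroid markers were lower. The endothelial calls lost were those of *Cldn5* (DESeq2 adjusted p = 0.0807) and *Tek* (DESeq2 adjusted p = 0.106), which edgeR kept in 3 and 2 of the 8 fits without 1 brain. The part of these shifts in the values of the NRF2 antioxidant genes and of the related genes was not tested.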

How the data were processed

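RNA of 8 E15.5 brains was captured with oligo(dT) and sequenced as paired reads. After trimming (Trim Galore), the authors placed reads on mm10 (TopHat2 2.1.1) and assigned pairs to exons of GENCODE genes (featureCounts 1.6.3), with no strand option stated. The deposited values are raw counts per gene. Symbols were matched for 54723 of 54752 identifiers, and coordinates are those of the count tables.

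Genes were kept by filterByExpr (minimum count 10, by group), scaled by TMM and tested in R 4.3.3 with edgeR 4.0.16 (glmQLFit, glmQLFTest, model of sex and condition, after simulated data with known changes). DESeq2 1.42.0 was an alternative, as were other size factors, no filter, no sex term and each brain left out. The study's model also held batch, which was not given for these brains. An interaction fit gave the values by sex. Log2 CPM used a prior count of 2, and the SE is the Log2FC over the square root of F. Per-length levels (TPM) used the exon length in the tables. Near copies were sought with blastn (at least 95% identity over 100 bases). Totals of 25320109 to 29105710 counts set the precision, and intervals cover the spread among these 8 brains.

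The 10 genes, the lists and the tests were chosen with earlier results of these data known. All 10 genes are named, and of each related list every called gene, up to the 4 with the smallest p. For the marker lists the counts called are given. The called markers named are those of the erythroid, meningeal and choroid plexus lists, and *Cldn5* and *Tek*. *Nfe2*, *Aldh3a1* and 5 markers were below the filter, and the marker *Ahsp* was matched to no identifier.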

Additional observations from a re-analysis of the deposited data

How the results depend on the processing

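The counts of 0 NRF2 antioxidant genes higher, lower, differing by sex or with an interaction were the same under every alternative run, with edgeR and DESeq2. Their Log2FC values are so near 0 that leaving out 1 brain turned the sign for 6 of them, none called: the values ranged from -0.00056 to 0.0453 for *Keap1*, from -0.0406 to 0.298 for *Nqo1*, from -0.00516 to 0.0254 for *Gclm*, from -0.00351 to 0.0394 for *Gclc*, from -0.0740 to 0.0106 for *Srxn1* and from -0.0516 to 0.0146 for *Gsr*. The log2 *Gclm* to *Gclc* ratio difference ranged from -0.0220 to 0.00782, turning positive without control F37 and without stress M28.

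In *Prdx1*, the Log2FC within males, an analysis chosen after seeing the data, ranged from 0.10 to 0.17 and was called in 3 of 12 alternatives. Over all genes, DESeq2 called 748 higher in place of 1160 and 911 lower in place of 1298. Leaving out 1 brain gave 736 to 1057 higher and 854 to 1308 lower in place of 1298, with the lowest values without stress M29. The cause was not tested. No paired analysis was possible because each group was a separate litter and no pairing of brains was given. Depth limits *Nqo1* and *Hmox1*, and with 1 litter a group, no result reaches beyond these litters.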
